A study of Mus musculus with 2 samples.

Results

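Lactose synthesis and the supply of its UDP-sugars were followed through 8 genes, Lalba, B4galt1, Slc35a2, Slc2a1, Ugp2, Ugdh, Hk1 and Hk2, which were taken by symbol from the 33943 genes of the deposited gene list. All 8 were found once. Lactose, the main sugar of milk, is made in the Golgi of secretory mammary cells by lactose synthase, in which the galactosyltransferase B4galt1 joins galactose to glucose while bound to α-lactalbumin, the product of Lalba. Glucose enters the cell through carriers such as Slc2a1 (GLUT1) and is phosphorylated by hexokinases (Hk1, Hk2). Ugp2 turns glucose 1-phosphate and UTP into UDP-glucose, which is converted to UDP-galactose and carried into the Golgi by Slc35a2. Ugdh instead oxidizes UDP-glucose to UDP-glucuronate, a building block of hyaluronan and of proteoglycan chains, and so draws on the same pool.

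Nuclei came from the inguinal mammary fat pad of 8 lactating mice on postnatal day 11, with the lymph nodes taken out and the tissue frozen. The labels name 4 mice with the oxytocin receptor gene Oxtr deleted in adipocytes and 4 mice with the floxed Oxtr alleles alone, and the comparison asks what loss of the adipocyte receptor changes in the gland. The labels do not name the Cre driver. Breeding was set up at 8 weeks of age. The nuclei of all mice were marked with hashtags (DNA-barcoded tags), pooled and sequenced as 1 gene expression library with 1 hashtag library. Hashtag names give 4 Oxtr-KO and 4 WT animals, and WT was taken as the floxed group, since the labels give no other genotype. Litter sizes are given in the labels as a batch but are not tied to animals, so litter and genotype cannot be told apart.

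The gene expression library held 107910356 UMIs (unique molecular identifiers, each standing for 1 captured RNA molecule) in 21805 barcodes, with a median of 4212. Animals labelled knockout gave 1200 to 1862 nuclei and WT animals 1421 to 1991. Classes were named from marker genes other than the 8 members. Secretory luminal nuclei were the most numerous at 9720, with 936 myoepithelial nuclei, 265 of luminal progenitors and 369 of adipocytes. There were also 703 nuclei of fibroblasts, 190 of macrophages, 202 of vascular endothelium and 216 of a cluster led by Klra2. These 8 classes had enough nuclei per animal for a test. In adipocyte nuclei the 4 animals named Oxtr-KO had 4, 5, 5 and 3 Oxtr UMIs, against 1 UMI in each of the 4 WT animals, so the animals are called labelled knockout. The labels do not say which part of Oxtr is deleted, so reads outside it would still be counted. Per the labels' protocols, nuclei of only some samples were washed against free RNA, without saying which. RNA that leaks from 1 source carries its genes in 1 ratio, so the members are also given per 1000 UMIs of 7 milk protein genes (Csn1s1, Csn1s2a, Csn1s2b, Csn2, Csn3, Wap, Glycam1) in the same nuclei. Levels across nuclear classes are a description with no test, because the classes were clustered from all genes. In summed nuclei, fewer nuclei that express a gene and less RNA per nucleus cannot be told apart unless single nuclei are shown.

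Lalba (ENSMUSG00000022991.6) and B4galt1 (ENSMUSG00000028413.14) are the subunits of lactose synthase, and the DNA upstream of their starts is shown because their RNA spread differently over the classes. Both stretches are from RefSeq on build GRCm38.p6 (the deposited files use GRCm39), run 5′ to 3′ on the minus strand and end short of the bases that a GENCODE annotation places inside the gene. The B4galt1 stretch is 229 bases at chr4:40854006-40854234, and the Lalba stretch is 212 bases at chr15:98482722-98482933. Capitals mark TTCNNNGAA, the letters that STAT5, the factor through which prolactin acts on milk genes, is known to bind.
B4galt1: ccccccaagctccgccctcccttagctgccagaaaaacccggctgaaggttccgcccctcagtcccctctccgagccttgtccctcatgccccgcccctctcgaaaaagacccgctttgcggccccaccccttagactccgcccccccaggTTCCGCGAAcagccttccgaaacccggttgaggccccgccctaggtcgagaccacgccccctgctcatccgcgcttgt
Lalba: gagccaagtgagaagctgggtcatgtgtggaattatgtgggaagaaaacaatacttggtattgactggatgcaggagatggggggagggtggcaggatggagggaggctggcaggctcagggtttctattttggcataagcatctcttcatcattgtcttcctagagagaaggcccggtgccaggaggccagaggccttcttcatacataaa
B4galt1 held 1 match, TTCCGCGAA, which begins 99 bases before the RefSeq start, and the Lalba stretch held none. Of 32851 RefSeq promoters searched over 250 bases on both strands, 7.02% held TTCNNNGAA. The 250 bases before the start held 19 CpG dinucleotides in B4galt1 and 2 in Lalba, against a median of 6 (quartiles 2 and 16) over those promoters. A match is a run of letters and no evidence of binding.

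Lalba RNA was abundant in every class of nuclei. It averaged 2163 ± 671 CPM (UMIs scaled to a total of 1000000 UMIs in that class, SD over 8 animals) in secretory nuclei and 2164 ± 648 CPM in vascular endothelial nuclei. The other means ran down through 1921 ± 405 CPM in macrophage, 1776 ± 188 in luminal progenitor, 1729 ± 236 in myoepithelial, 1642 ± 375 in fibroblast, 1585 ± 254 in Klra2-led and 1172 ± 116 CPM in adipocyte nuclei (SD, n = 8 each). Each class overlapped the next in this order, while the adipocyte range (1015 to 1354 CPM) lay below the secretory range (1504 to 3137 CPM). A Lalba UMI was present in 99.9% of secretory nuclei (median depth 5257 UMIs) and in 99.5% of adipocyte nuclei (median depth 4311 UMIs), a cell type that does not make milk proteins. With every nucleus thinned to 1000 UMIs the shares were 84.8% and 66.6%, with 95% exact binomial intervals of 84.0 to 85.5% and 61.5 to 71.4%, which cover counting error only. Per 1000 milk protein UMIs, Lalba stood at 14.98 pooled over secretory nuclei, 14.99 over adipocyte, 15.4 over fibroblast, 15.1 over myoepithelial, 15.6 over luminal progenitor, 14.1 over vascular endothelial, 13.95 over macrophage and 14.5 over Klra2-led nuclei. These pooled ratios lay close together, but within an animal they could differ between classes, with 9.51 in secretory and 13.7 in adipocyte nuclei of animal 1 labelled knockout, and 21.8 and 15.95 in those of WT animal 2. How much of the Lalba RNA outside the secretory nuclei is free RNA was not tested, and its level there is not read as expression. Across 10 cell types and 3664 genes, the patterns most like that of Lalba were those of the caseins Csn1s2a, Csn2 and Csn3, with Pearson correlations of 0.992, 0.987 and 0.964, over types that share 1 library and its free RNA.

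B4galt1 was highest in the secretory nuclei by both measures. It averaged 3006 ± 1007 CPM there, 2061 ± 518 in vascular endothelial, 1795 ± 456 in luminal progenitor, 1736 ± 694 in Klra2-led, 1664 ± 615 in macrophage, 1371 ± 439 in fibroblast, 1326 ± 465 in myoepithelial and 618 ± 119 CPM in adipocyte nuclei (SD, n = 8 each). Neighbours in this order overlapped. Per 1000 milk protein UMIs it stood at 21.2 over secretory nuclei and lower in every other tested class, between 8.09 over adipocyte and 18.1 over Klra2-led nuclei. After thinning, 88.95% of secretory nuclei kept a B4galt1 UMI, and so did 31.25% of adipocyte nuclei, 32.8% of myoepithelial nuclei and 70.0% of vascular endothelial nuclei. The genes most like B4galt1 in pattern were Pcsk7, Slc28a3 and Rapgef5 (Pearson correlations 0.989, 0.986 and 0.985 over 10 cell types). The B4galt1 level also varied between animals in the same way in several classes. Animal 3 labelled knockout had 1527 CPM in secretory, 754 in myoepithelial and 468 in adipocyte nuclei, the lowest of its genotype in each. WT animal 4 had 1859, 645 and 459 CPM in the same classes, again the lowest of its genotype. How much of the B4galt1 RNA outside the secretory nuclei is free RNA was not tested, and its level there is not read as expression.

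**Figure D1:**
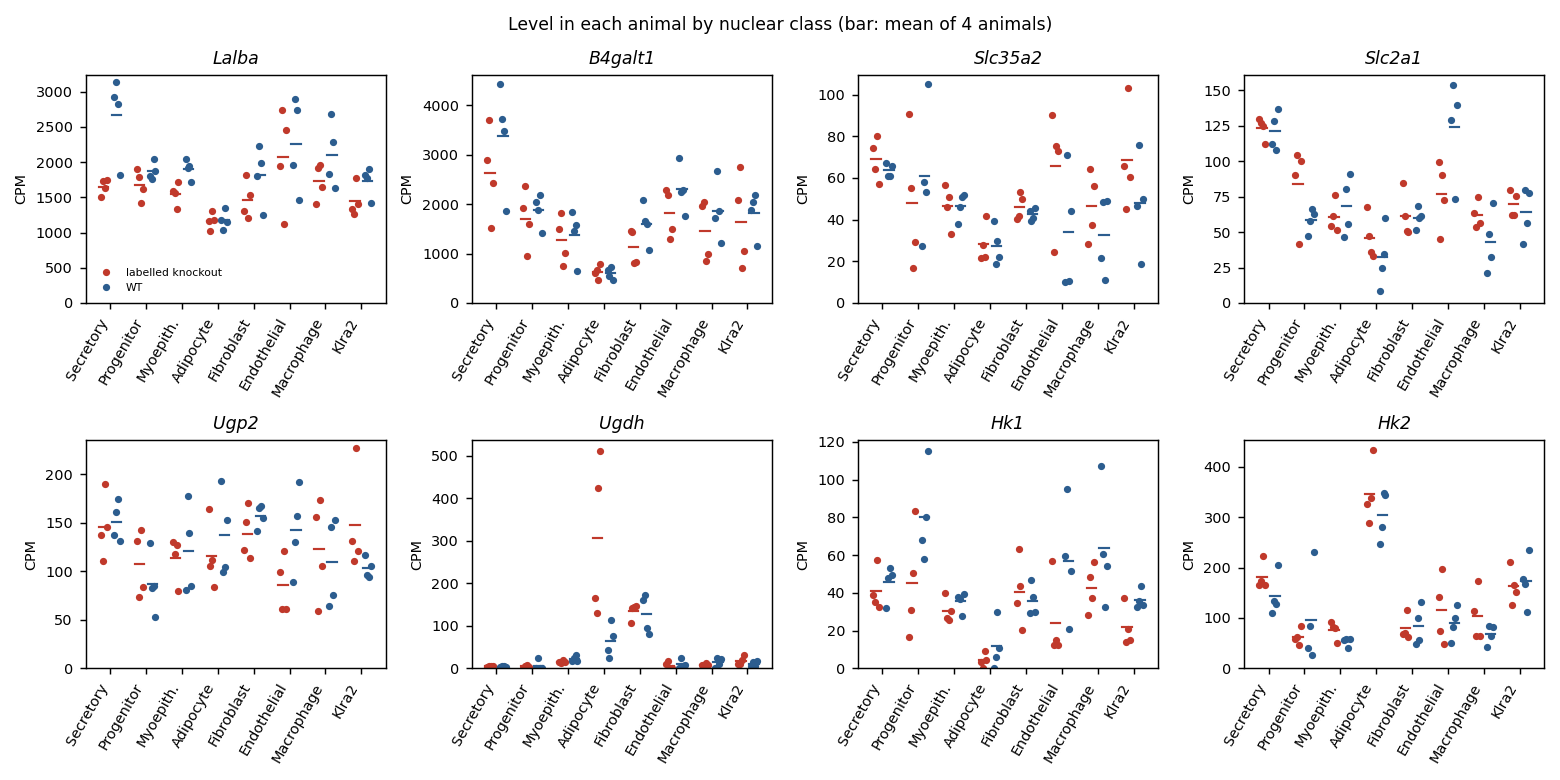
Level of each of the 8 genes (CPM, linear axis) by nuclear class, with 1 point per animal, labelled knockout left of WT, and a bar for the mean of 4 animals. Lalba and B4galt1 are high in every class, Ugdh stands out in adipocyte and fibroblast nuclei, and Hk2 in adipocyte nuclei.

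Slc35a2 (ENSMUSG00000031156.19), the Golgi carrier for UDP-galactose, overlapped between neighbouring classes throughout. It averaged 66.3 ± 7.60 CPM in secretory nuclei, and the other means lay between 58.2 ± 24.8 CPM in Klra2-led and 27.9 ± 8.64 CPM in adipocyte nuclei (SD, n = 8 each). Per 1000 milk protein UMIs, its 0.438 in secretory nuclei lay among the values of the other classes, 0.305 in vascular endothelial to 0.508 in Klra2-led nuclei. Its closest patterns were those of Atp6v0a2, Tom1l2 and Oxa1l (correlations 0.967, 0.964 and 0.964 over 10 cell types).

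Slc2a1 (ENSMUSG00000028645.12), the glucose carrier GLUT1, was led by the secretory nuclei, with 122 ± 10.2 CPM and a range over animals of 108 to 137 CPM. Vascular endothelial nuclei followed at 100.5 ± 37.7 CPM with a range of 44.9 to 154 CPM, and adipocyte nuclei were lowest at 39.1 ± 19.0 CPM (SD, n = 8 each). The secretory range lay above those of myoepithelial nuclei (46.7 to 91.0 CPM), fibroblast nuclei (49.8 to 85.0 CPM), macrophage nuclei (21.5 to 74.5 CPM) and adipocyte nuclei (8.79 to 67.9 CPM). Per 1000 milk protein UMIs, Slc2a1 stood at 0.811 in secretory nuclei, against 0.426 in macrophage to 0.641 in luminal progenitor nuclei. Hephl1, Ehmt1 and Setd7 had the most similar patterns (correlations 0.957, 0.949 and 0.939 over 10 cell types).

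Ugp2 (ENSMUSG00000001891.17), which makes UDP-glucose, was present throughout. Secretory nuclei had 148 ± 25.6 CPM, fibroblast nuclei 148 ± 21.2, adipocyte nuclei 127 ± 38.5 and luminal progenitor nuclei, the lowest class, 97.5 ± 32.4 CPM (SD, n = 8 each), and neighbours overlapped. Fibroblasts formed a cluster with the progenitor marker Pi16 (169 nuclei) and a cluster without it (534 nuclei), chosen for a closer look after their values were seen. Pooled over animals, Ugp2 stood at 255 CPM in the nuclei with Pi16 (95% Poisson interval 222 to 291) and 110 CPM in those without (97.4 to 124). The range over animals was 204 to 412 CPM with Pi16 and 87.3 to 147 CPM without. The genes most like Ugp2 were Lncpint, Jtb and Sec16b, with correlations of 0.876, 0.859 and 0.854 over 10 cell types.

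Ugdh (ENSMUSG00000029201.15) was scarce in secretory nuclei and highest in adipocytes and fibroblasts. Secretory nuclei had 4.38 ± 0.993 CPM, with 241 UMIs in 9720 nuclei, and animals ranged from 2.63 to 5.54 CPM. Adipocyte nuclei had 186 ± 181 CPM and fibroblast nuclei 131 ± 33.0 CPM, against 18.5 ± 5.82 CPM in myoepithelial nuclei, the next in order (SD, n = 8 each). The place of adipocytes at the head of this order rests on the animals labelled knockout, with 308 ± 189 CPM in their adipocyte nuclei against 64.8 ± 39.1 CPM in those of WT animals, while fibroblast nuclei had 135 ± 18.6 CPM and 127 ± 46.4 CPM (SD, n = 4 each). It also rests on a few nuclei, since 13 of the 369 adipocyte nuclei held 258 of the 362 Ugdh UMIs. The fibroblast range of 79.8 to 173 CPM did not overlap the myoepithelial range of 12.6 to 30.4 CPM. Within fibroblasts, the Pi16 cluster held 374 CPM (95% Poisson interval 334 to 418) and the other cluster 50.7 CPM (42.3 to 60.2), and the ranges over animals, 219 to 580 and 27.9 to 81.5 CPM, were apart. Ugdh per 1000 milk protein UMIs was 3.65 in Pi16 fibroblasts, 2.49 in adipocytes and 0.0289 in secretory nuclei. After thinning, 34.8% of Pi16 fibroblasts (95% exact binomial interval 27.5 to 42.6%), 5.45% of the other fibroblasts (3.68 to 7.74%), 10.05% of adipocytes (7.18 to 13.6%) and 0.442% of secretory nuclei (0.320 to 0.596%) had a Ugdh UMI. Unthinned, the shares were 62.7%, 18.2%, 23.85% and 2.17%. Its pattern was closest to those of Gsn, Lamb1 and Prr16 (correlations 0.969, 0.945 and 0.924 over 10 cell types).

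Genes that use or extend the UDP-sugar pool were looked up in the same nuclei from the pathway lists, and those named here were picked for their levels. Gfpt2, which starts the hexosamine branch toward UDP-N-acetylglucosamine, stood at 716 CPM in Pi16 fibroblasts, 49.1 in the other fibroblasts, 8.53 in adipocytes and 0.613 CPM in secretory nuclei. Has2, which builds hyaluronan from UDP-glucuronate and UDP-N-acetylglucosamine, had 92.1, 27.5, 1.07 and 0.252 CPM in the same order of classes. Adipocyte nuclei were high in Gys1 (glycogen synthase, which consumes UDP-glucose), with 231 CPM against 25.5 CPM in secretory and 19.8 CPM in fibroblast nuclei. They also had 108 CPM of Pgm1 (phosphoglucomutase), against 23.4 CPM in secretory and 20.7 CPM in fibroblast nuclei. Secretory nuclei led in Tmem165, needed for manganese in the Golgi, with 636 CPM, against 165 CPM in adipocyte and 308 CPM in fibroblast nuclei. The Golgi calcium and manganese pump Atp2c2 likewise had 532 CPM in secretory, 98.6 in adipocyte and 229 CPM in fibroblast nuclei. All of these are pooled over animals.

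The hexokinases split between cell types. Hk2 (ENSMUSG00000000628.11), the form tied to insulin action in fat and muscle, averaged 325.5 ± 56.3 CPM in adipocyte nuclei with a range of 246 to 433 CPM (SD, n = 8), above every animal of the next class, the Klra2-led nuclei, at 168 ± 40.4 CPM with a range of 113 to 234 CPM. Secretory nuclei followed at 163 ± 38.3 CPM, and myoepithelial nuclei were lowest at 64.4 ± 17.8 CPM (SD, n = 8 each). Per 1000 milk protein UMIs, Hk2 stood at 4.18 in adipocyte, 1.56 in Klra2-led, 1.04 in secretory and 0.565 in myoepithelial nuclei, and 27.99%, 16.7%, 14.6% and 4.49% of thinned nuclei had a UMI. Hk1 (ENSMUSG00000037012.19), the form found in most tissues, showed another order, with 62.8 ± 31.3 CPM in luminal progenitor, 53.1 ± 24.9 in macrophage, 43.2 ± 9.91 in secretory and 7.94 ± 9.62 CPM in adipocyte nuclei (SD, n = 8 each). Adipocytes held only 13 Hk1 UMIs in 369 nuclei, and 2 of the 8 animals had none. Neighbours in the Hk1 order overlapped. Per 1000 milk protein UMIs, Hk1 stood at 0.562 in luminal progenitor, 0.371 in macrophage, 0.285 in secretory and 0.0892 in adipocyte nuclei. Patterns like that of Hk2 included those of Pnpla2 and Car5b (correlations 0.941 and 0.939), and those most like Hk1 were Sec61a1, Dennd6a and Iars (0.954, 0.943 and 0.938), each over 10 cell types.

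**Figure D2:**
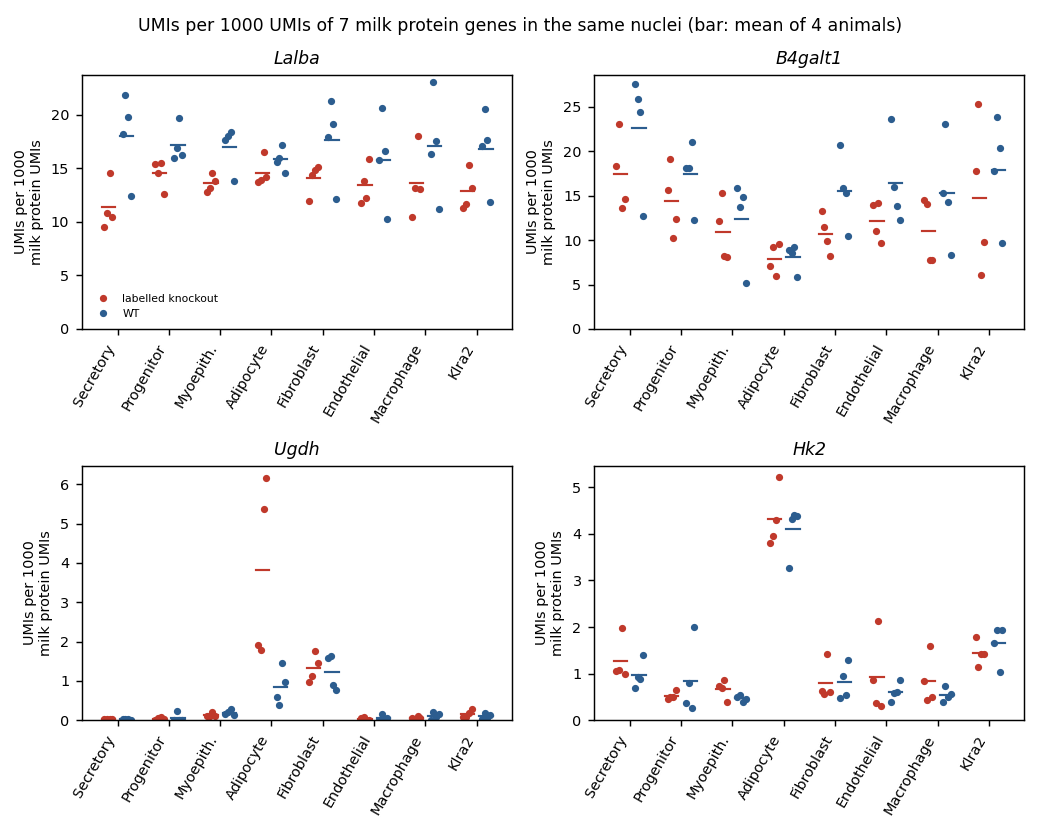
UMIs of Lalba, B4galt1, Ugdh and Hk2 per 1000 milk protein UMIs of the same nuclei (linear axis), 1 point per animal, labelled knockout left of WT, with a bar for the mean of 4 animals. Lalba runs from 9.51 to 21.8 over animals in secretory nuclei and from 13.7 to 17.2 in adipocyte nuclei. In secretory nuclei its bar is lower for animals labelled knockout than for WT animals. B4galt1 is highest in secretory nuclei and Hk2 in adipocyte nuclei. Ugdh is highest in adipocytes for animals labelled knockout and in fibroblasts for WT animals.

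Between the genotypes, none of the 8 genes passed the test in any class where it was tested. All 8 were tested in secretory and fibroblast nuclei, 7 in myoepithelial and 6 in Klra2-led nuclei. Luminal progenitor, adipocyte and vascular endothelial nuclei had 5 tested each, and macrophage nuclei 3. The others did not pass the filter on low counts, and Ugdh was tested only in secretory, adipocyte and fibroblast nuclei. The test was edgeR's quasi-likelihood test on UMIs summed per animal, with Benjamini-Hochberg adjustment over all genes of a class and a threshold of 0.05. In secretory nuclei it called 0 members of 8 and 0% of 12857 genes (1103 genes had an unadjusted p under 0.05, and DESeq2 called 0.158% of 14597 genes and no member). In adipocyte nuclei it called 0 members of the 5 that passed the filter on low counts and 0% of 3883 genes (298 genes had an unadjusted p under 0.05, and DESeq2 called none). The percentage of genes called was 0.0148 by edgeR and 0.00506 by DESeq2 in myoepithelial nuclei, 0.0412 by edgeR and 0.0059 by DESeq2 in vascular endothelial nuclei, and 0 in fibroblast, luminal progenitor, macrophage and Klra2-led nuclei, with no member called in any of them by edgeR or DESeq2. Apart from Ugdh in adipocyte nuclei, every member tested overlapped between the genotypes in every class on the scale of TMM-scaled CPM, on which each animal's total is rescaled. In plain CPM, Lalba in secretory nuclei did not overlap either, but the share of all genes without overlap was not counted on that scale. The share of all genes without overlap on the TMM scale was 4.26% in secretory, 3.44% in luminal progenitor, 3.99% in myoepithelial, 3.76% in adipocyte, 2.95% in fibroblast, 2.85% in vascular endothelial, 2.19% in macrophage and 3.17% in Klra2-led nuclei. At an unadjusted p under 0.05 there was 1 member each in secretory, adipocyte, fibroblast and vascular endothelial nuclei, 2 in myoepithelial nuclei and none in the other 3 classes. The share of all genes with such a p was 8.58% in secretory, 7.67% in adipocyte, 5.31% in fibroblast, 4.12% in vascular endothelial, 7.54% in myoepithelial, 5.1% in luminal progenitor, 2.77% in macrophage and 6.45% in Klra2-led nuclei. The members' median log2 fold change was -0.06 in secretory nuclei, where that of all genes tested was -0.01, and 0.06 in adipocyte nuclei, where that of all genes was 0.00.

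Lalba in secretory nuclei stood lower in the animals labelled knockout in each of the 3 secretory clusters, without passing the test. In TMM-scaled CPM, animals 1 to 4 labelled knockout had 1528, 1732, 1488 and 1797, against 3088, 3319, 2835 and 1737 in WT animals 1 to 4. WT animal 4 lay among the animals labelled knockout, and the other 3 WT animals lay above all of them. In plain CPM the values were 1504, 1729, 1629 and 1745 in animals 1 to 4 labelled knockout, against 2921, 3137, 2821 and 1821 in WT animals 1 to 4. On that scale WT animal 4 lay above every animal labelled knockout, so the overlap depends on the scaling. The log2 fold change was -0.75 (SE 0.20), an edgeR adjusted p of 0.545. DESeq2 gave -0.75 with an adjusted p of 0.082. Leaving out WT animal 4 gave -0.91 with an edgeR adjusted p of 0.0422, and leaving out any of the other 7 animals gave no call. That animal also differed in the makeup of its secretory nuclei, with 66.1% in the cluster led by D730050B12Rik, against 26.5 to 46.0% in the animals labelled knockout and 11.9 to 33.7% in the other WT animals. Within that cluster the log2 difference in Lalba was -0.69 (SE 0.20), with 1764 to 2080 TMM-scaled CPM in animals labelled knockout and 1889 to 3941 in WT animals. Within the cluster led by Clec12a it was -0.80 (SE 0.22), with 1382 to 1619 against 1508 to 3253. Within the cluster led by Kif11 it was -0.82 (SE 0.22), with 1668 to 2005 against 2079 to 4276. WT animal 4 was the lowest WT animal in all 3 clusters, and in the cluster led by Kif11 it still lay above every animal labelled knockout. The share of all genes without overlap was not counted within these clusters, so this gap has nothing to be set against. The edgeR adjusted p in these clusters, taken in the same order, was 0.721, 0.411 and 0.536, and these fits were chosen after seeing the data.

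None of the 7 milk protein genes passed the test in secretory nuclei. They made up 14.9 ± 2.52% of secretory UMIs in animals labelled knockout and 14.8 ± 0.838% in WT animals (SD, n = 4 each), and their median log2 difference was -0.01, that of all genes being -0.01. Per 1000 of these UMIs, Lalba had 9.51, 10.8, 14.6 and 10.5 in secretory nuclei of animals 1 to 4 labelled knockout, against 18.2, 21.8, 19.8 and 12.4 in WT animals 1 to 4. In adipocyte nuclei, where Lalba is not read as expression, the same measure gave 13.7, 13.9, 16.5 and 14.2 against 15.6, 15.95, 17.2 and 14.6, with a log2 difference in Lalba of -0.03 (SE 0.16). In myoepithelial nuclei Lalba differed by -0.31 (SE 0.14, edgeR adjusted p 0.611). The test of the difference between adipocyte and secretory nuclei gave 0.71 (SE 0.23) with an edgeR adjusted p of 0.317 for Lalba, in a fit that called 0.0239% of 12558 genes. Without WT animal 4 it was 0.97 with an edgeR adjusted p of 0.0153. Since Lalba in adipocyte nuclei is not read as expression, this test cannot show whether a difference is particular to secretory nuclei.

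**Figure D3:**
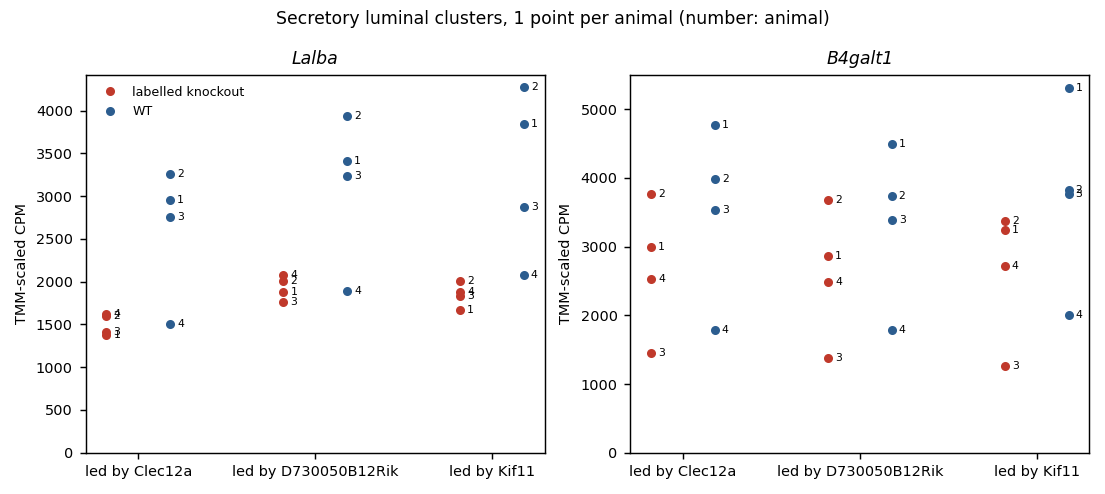
Lalba and B4galt1 (TMM-scaled CPM, linear axis) in the 3 secretory clusters, 1 numbered point per animal, labelled knockout left of WT. For Lalba, WT animals 1 to 3 lie above all animals labelled knockout in each cluster, and WT animal 4 is the lowest WT animal in each.

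The other members overlapped between the genotypes in secretory nuclei. B4galt1 had 2942, 3702, 1394 and 2500 TMM-scaled CPM in animals 1 to 4 labelled knockout, against 4680, 3946, 3504 and 1773 in WT animals 1 to 4, with wide overlap and a log2 fold change of -0.40 (SE 0.33, edgeR adjusted p 0.75). Hk2 had 168, 174, 203 and 169 against 116, 142, 128 and 195 TMM-scaled CPM. For Hk2, WT animal 4 was the only WT animal inside the range of those labelled knockout, and the log2 fold change was 0.30 (SE 0.16, edgeR adjusted p 0.626). Slc2a1 averaged 122 ± 8.63 in animals labelled knockout and 124 ± 12.2 TMM-scaled CPM in WT animals (SD, n = 4 each). Ugp2 averaged 143 ± 26.1 and 154 ± 23.5 in the same order. The remaining members lay between a log2 fold change of -0.21 (SE 0.18) for Hk1 and 0.18 (SE 0.25) for Ugdh.

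Ugdh in adipocyte nuclei showed the widest gap between the genotypes among the members. Animals 1 to 4 labelled knockout had 192, 149, 488 and 602 TMM-scaled CPM, from 46, 47, 95 and 123 UMIs, against 51.5, 29.5, 133 and 88.5 in WT animals 1 to 4, from 10, 4, 23 and 14 UMIs. Every animal labelled knockout lay above every WT animal, and Ugdh was the only one of the 5 members tested there whose groups did not overlap, where 3.76% of all 3883 genes did not. The log2 fold change was 2.19 (SE 0.46), or 4.55-fold, with an edgeR adjusted p of 0.23. DESeq2 gave 2.24 with an adjusted p of 0.0852. Without animal 2 labelled knockout the value was 2.47 with an edgeR adjusted p of 0.0389, and without WT animal 4 it was 2.26 with 0.0366, while the 6 fits that left out another animal made no call (1.80 to 2.61). With no filter on low counts it was 2.26 with an edgeR adjusted p of 6.44e-13. The difference from secretory nuclei was 1.87 (SE 0.41) with an edgeR adjusted p of 0.0562. It passed with 1 animal fewer in 5 of 8 fits, with adjusted p of 0.0127, 0.00705 and 0.0388 without animals 1, 2 and 3 labelled knockout, and 0.0178 and 8.59e-04 without WT animals 3 and 4.

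Single nuclei show that most of these Ugdh UMIs lay in a few of them. At a limit of 5 UMIs, chosen after the values were seen, 12 of 210 adipocyte nuclei of the animals labelled knockout were above it or on it, with 1, 3, 3 and 5 in animals 1 to 4, against 1 of 159 nuclei of the WT animals. These nuclei held 245 of 311 Ugdh UMIs in the animals labelled knockout and 13 of 51 in the WT animals, and the highest single nucleus had 48. The lowest of them had 5 UMIs and the highest nucleus below the limit had 4. The other nuclei, taken alone, had 84.4, 49.3, 47.8 and 73.5 CPM in animals 1 to 4 labelled knockout, against 44.0, 24.9, 51.8 and 76.5 CPM in WT animals 1 to 4, and these ranges overlapped. The share of nuclei with any Ugdh UMI was 26.2% in animals labelled knockout and 20.8% in WT animals. Pparg, the adipocyte regulator, had a UMI in all 13 high nuclei and in 337 of the 356 other adipocyte nuclei. At least 1 of the 10 fibroblast markers had a UMI in 5 of the 13 and in 187 of the 356. Dpp4 or Pi16 had one in 1 of the 13 and in 34 of the 356. The median depth was 4777 UMIs in the high nuclei and 4289 UMIs in the others. No test was made on these nuclei.

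Marker levels in the adipocyte nuclei stand beside this difference. All 10 fibroblast markers were detected in adipocyte nuclei, and their summed level was 313 ± 87.9 CPM in animals labelled knockout (200 to 410) and 261 ± 68.7 CPM in WT animals (203 to 360; SD, n = 4 each). Single markers had 4 to 115 UMIs in animals labelled knockout and 1 to 64 UMIs in WT animals. Dpp4 had 42 UMIs against 14, with 7, 11, 15 and 9 in animals 1 to 4 labelled knockout and 3, 1, 8 and 2 in WT animals 1 to 4. Pi16 had 10 against 1, and 8 of the 10 were in animal 4 labelled knockout. Pdgfra (4 against 6) and Lum (6 against 7) went the other way. These counts are not scaled, and there were 210 adipocyte nuclei of animals labelled knockout against 159 of WT animals. On the CPM scale Dcn and Col6a3 also averaged lower in the animals labelled knockout. Dcn ran from 12.5 to 41.7 CPM in them and from 14.9 to 49.9 CPM in WT animals. Col6a3 ran from 8.33 to 32.2 CPM and from 9.92 to 76.5 CPM in the same order. The 10 adipocyte markers summed to 21560 ± 1326 CPM in animals labelled knockout and 28410 ± 3958 CPM in WT animals (SD, n = 4 each), whose ranges were apart. The part of either in the Ugdh difference was not tested. Over all fibroblast nuclei Ugdh had 117, 153, 150 and 158 TMM-scaled CPM in animals 1 to 4 labelled knockout against 176, 191, 101 and 86.4 in WT animals 1 to 4. Those values overlapped and gave a log2 fold change of 0.06 (SE 0.22, edgeR adjusted p 0.994). In the Pi16 cluster it was 0.13 (SE 0.29), and in the fibroblasts without Pi16 it was 0.72 (SE 0.33) with an unadjusted p of 0.0403 and an edgeR adjusted p of 0.996.

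**Figure D4:**
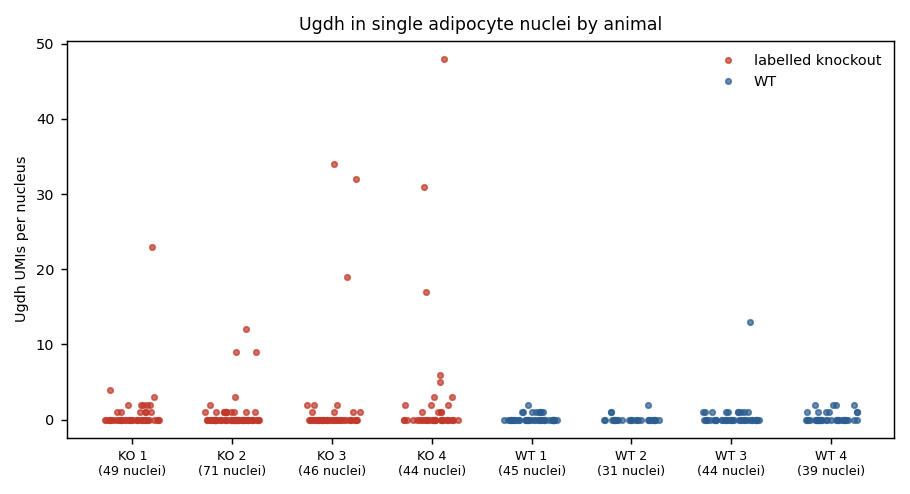
Ugdh UMIs in each adipocyte nucleus (linear axis, points spread sideways for sight), by animal, labelled knockout left of WT. Most nuclei are at 0 to 2 in every animal, and 12 of the 13 nuclei with 5 UMIs or more belong to animals labelled knockout.

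The other adipocyte members that were tested overlapped between the genotypes. Hk2 had 379, 330, 391 and 509 TMM-scaled CPM in animals 1 to 4 labelled knockout, against 288, 332, 404 and 398 in WT animals 1 to 4, and a log2 fold change of 0.17 (SE 0.20). Ugp2 differed by -0.27 (SE 0.27) and B4galt1 by 0.06 (SE 0.21). Slc35a2, Slc2a1 and Hk1 were too low there to be tested, with 53, 76 and 13 UMIs in all. Among the remaining classes, the members with an unadjusted p under 0.05 were Hk2 in myoepithelial nuclei at 0.48 (SE 0.22, edgeR adjusted p 0.611; -0.19, SE 0.34, without the highest 5% of Scrublet scores), Lalba there as above, B4galt1 in fibroblasts at -0.52 (SE 0.22, edgeR adjusted p 0.93) and Ugp2 in vascular endothelial nuclei at -0.80 (SE 0.32, edgeR adjusted p 0.988). Myoepithelial Hk2 ran from 53.3 to 101 TMM-scaled CPM in animals labelled knockout and from 43.1 to 63.6 in WT animals, which overlapped. Endothelial Ugp2 ran from 79.8 to 141 against 117 to 255, also with overlap.

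**Figure D5:**
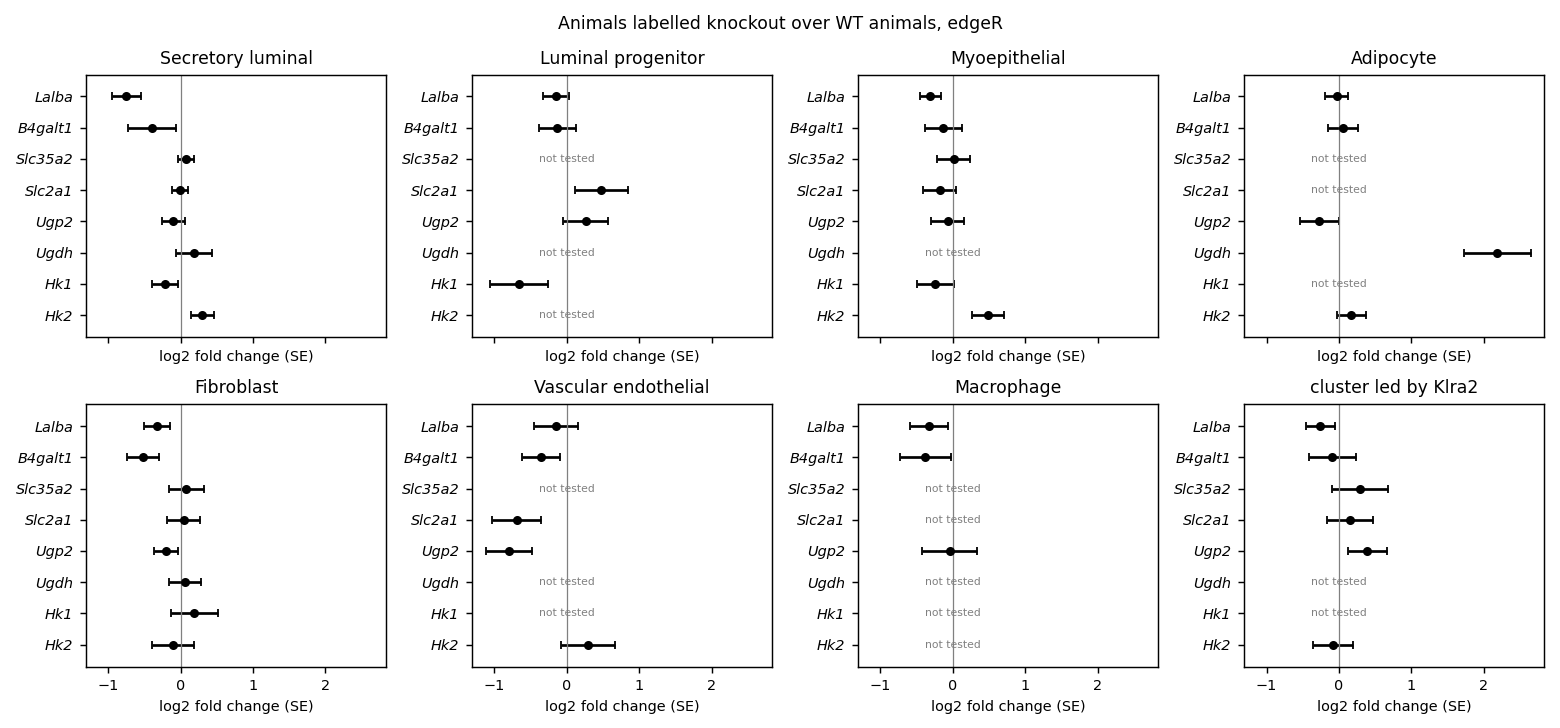
Log2 fold change of each gene, animals labelled knockout over WT animals, with its standard error, in the 8 tested classes (edgeR, 4 animals each; genes under the filter on low counts are marked as not tested). Ugdh in adipocyte nuclei, at 2.19, lies farthest from 0, and Lalba in secretory nuclei lies at -0.75.

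Around the members, 7 lists of pathway genes held no gene that passed the test in secretory or adipocyte nuclei. In secretory nuclei the Golgi galactosylation list (other galactosyltransferases, nucleotidases, a nucleotide carrier and metal-ion transport) had 9 of 12 genes tested, 1 with a positive and 8 with a negative log2 fold change, and a median of -0.16, where all genes had -0.01. Atp2c2 was at -0.20 (SE 0.11) and Slc35b1, a Golgi and ER nucleotide carrier, at -0.41 (SE 0.28). Of the UDP-sugar interconversion genes 11 of 12 were tested, with a median of -0.05, and Galm, which interconverts the anomers of galactose, was at 0.21 (SE 0.16). The UTP supply list had 9 of 11 genes tested and a median of 0.01. Its smallest p-values were those of the CTP synthases Ctps2, at 0.36 (SE 0.15), and Ctps, at -0.57 (SE 0.24). These 2 enzymes turn UTP into CTP and so use UTP rather than supply it. Hexose phosphate genes had a median of -0.09 over 6 of 9 genes (Pgm2 at 0.20, G6pc3 at -0.13), glucose transport genes -0.01 over 5 of 9 (Slc50a1 at -0.22, Slc2a8 at -0.16), and users of UDP-glucose or UDP-glucuronate -0.01 over 6 genes tested of 9 found (Uggt2 at 0.41, Gys1 at -0.19).

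In adipocyte nuclei few list genes passed the filter on low counts. The lower summed adipocyte markers of the animals labelled knockout, given above, stand beside these lists as well, and their part was not tested. Glucose transport genes had 3 of 9 tested, all negative, with a median of -0.85 where all genes had 0.00. Slc2a13, a proton and myo-inositol carrier of the glucose carrier family, had 95.8, 101, 97.7 and 147 TMM-scaled CPM in animals 1 to 4 labelled knockout, against 237, 354, 225 and 145 in WT animals 1 to 4. WT animal 4 overlapped the animals labelled knockout, and the log2 fold change was -1.11 (SE 0.27, edgeR adjusted p 0.23). It was called without WT animal 4, at -1.28 with an edgeR adjusted p of 0.026, and with no filter on low counts, at -1.05 with 0.0176. Slc2a4 (GLUT4), the insulin-responsive carrier, had 66.7, 22.2, 46.3 and 49.0 against 124, 59.0, 69.2 and 63.2, a log2 fold change of -0.85 (SE 0.36, edgeR adjusted p 0.581), and overlapped through animal 1 labelled knockout. Pgm1 had 125, 111, 56.6 and 93.0 against 190, 170, 133 and 152, without overlap, at -0.71 (SE 0.25, edgeR adjusted p 0.434), and G6pdx, the other of 2 hexose phosphate genes tested of 9, was at -0.53 (SE 0.32), for a list median of -0.62. The UDP-sugar interconversion list had 5 of 12 genes tested and a median of -0.04, with Pgm3 at -0.79 (SE 0.41) and Galk2 at 0.67 (SE 0.35). Gys1, the only user of UDP-glucose tested, was at -0.27 (SE 0.20). Of the Golgi list 3 of 12 were tested, all positive, with Atp2c2 at 0.86 (SE 0.27, edgeR adjusted p 0.383) and Tmem165 at 0.53 (SE 0.24). Atp2c2 ran from 108 to 196 TMM-scaled CPM in animals labelled knockout and from 59.0 to 92.6 in WT animals. Like Pgm1 it did not overlap, where 3.76% of all 3883 genes did not. Atp2c2 and Tmem165 were higher in secretory nuclei, as given above. How much of their RNA in adipocyte nuclei is free RNA was not tested. The UTP supply list had 3 of 11 tested and a median of 0.28 (Ctps2, which uses UTP, at 0.29, and Cmpk1 at 0.28). The 7 milk protein genes, whose RNA in adipocyte nuclei is not read as expression, were all positive, with a median of 0.09. Glycam1 was at 0.29 (SE 0.16) and Csn1s1 at 0.15 (SE 0.13). Together the 7 genes made up 8.01 ± 0.544% of adipocyte UMIs in animals labelled knockout and 7.44 ± 0.652% in WT animals (SD, n = 4 each).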

How the data were processed

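Single nuclei of 8 mice were sequenced in 1 gene expression and 1 hashtag library. The authors deposited raw UMI counts per gene and nucleus; the submitters' processing notes name Cell Ranger 7.2.0, fastp and build GRCm39. The deposited hashtag table holds 1 line per hashtag UMI with its read count, and lines were counted as UMIs (61.4% had 1 read). No source used here says how hashtags were read.

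Barcodes with at least 500 UMIs, 300 genes and under 5% mitochondrial UMIs were kept (20854). Animals were called with HTODemux (Seurat 5.3.0, centred log ratios across barcodes, quantile 0.99) from 9 of 10 hashtags, without Unknown_sample1. That gave 13057 barcodes of 1 animal and 2041 doublets, which were removed, and doublets within an animal are not seen. Another 5479 barcodes had no called hashtag and 277 were of Unknown_sample2. These were clustered with the rest but are in no level or test. An animal was called for 202 of 631 clustered vascular endothelial, 190 of 430 macrophage, 936 of 1871 myoepithelial and 369 of 460 adipocyte barcodes, so the loss was uneven. Scrublet marked 1 barcode and so did not work. Nuclei were clustered with scanpy 1.11.5 (2000 variable genes, 30 components, 15 neighbours, Leiden resolution 0.5). A cluster took a name from at least 3 markers. Each had to reach 2-fold over the lower quartile of the levels of all clusters, in at least 10% of the cluster's nuclei. This rule was set after the clusters were seen. A name means nuclei like that type. Milk protein RNA is in all clusters, so secretory nuclei were named from Btn1a1, Xdh, Elf5 and Abcg2. A low-depth cluster led by Hbb-bs was left out.

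Counts were summed per animal and class (10 nuclei or more in 3 or more animals per genotype) and tested with edgeR 4.0.16 (quasi-likelihood, TMM, filterByExpr, genotype only, Benjamini-Hochberg, threshold 0.05, R 4.3.3), with DESeq2 1.42.0 as an alternative. The difference between adipocyte and secretory nuclei was tested as a genotype by class term with animal as a block. The scripts were tested on simulated data. Depth per animal was 4197956 to 8996870 UMIs in secretory and 160475 to 359677 UMIs in adipocyte nuclei, which limits adipocyte calls. Intervals are exact binomial or Poisson and cover counting error only. The SE of an edgeR log2 fold change was worked back from the test, as its absolute value divided by the square root of the quasi-likelihood F statistic. Likeness is the Pearson correlation of log2(CPM + 1) over genes of at least 50 mean CPM. The labels give no pairing by the replicate numbers in the hashtag names, so the main fits used none. All animals share 1 pool, and p-values measure the spread between animals.

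The members, marker lists and pathway lists were chosen with earlier results of these data known. Genes named were the 8 members, the 2 genes of each list with the smallest p in secretory and adipocyte nuclei, the 3 genes most like each member, and others said to be chosen after their values were seen. Some genes that this rule names are not reported here.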

Additional observations from a re-analysis of the deposited data

Results flagged for a closer look

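In 6 of 128 groups of 4 animals, 1 animal stood apart from the other 3 by more than Dixon's 95% limit (0.829 of the range); chance alone flags about 1 group in 20. The values below are CPM. Animal 3 labelled knockout was high in Hk2 in secretory nuclei, at 222 against 164 to 174 in the other animals labelled knockout, from 932 UMIs. It was also high in Hk2 in fibroblast nuclei, at 116.5 against 61.1 to 69.9, from 48 UMIs. WT animal 3 was low in Hk2 in myoepithelial nuclei, at 40.6 against 56.9 to 57.9 in the other WT animals, from 16 UMIs. Animal 1 labelled knockout was low in Ugdh in fibroblast nuclei, at 107.3 against 142 to 147, from 53 UMIs. The same animal was high in Hk1 in vascular endothelial nuclei, at 56.9 against 12.1 to 15.1, from 12 UMIs. WT animal 2 had 24.9 CPM of Ugdh in luminal progenitor nuclei, from 3 UMIs, and the other 3 WT animals had none.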

How the results depend on the processing

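Leaving out 1 animal at a time moved Lalba in secretory nuclei between -0.91 and -0.64 (called in 1 of 8 fits), Ugdh in adipocyte nuclei between 1.80 and 2.61 (2 of 8) and the Ugdh difference between adipocyte and secretory nuclei between 1.58 and 2.36 (5 of 8), and the Lalba difference between them between 0.63 and 0.97 (1 of 8), so the number of members called ran from 0 to 1 in both classes, and that of list genes in adipocyte nuclei (Slc2a13) from 0 to 1. With no filter on low counts Ugdh in adipocyte nuclei was 2.26, and 1 member and 1 list gene (Slc2a13) were called there. With a replicate block Ugdh was 2.20 (edgeR adjusted p 7.46e-04), and 1 member was called. The block rests on a number only: same-numbered animals deviated together with correlations of -0.02 to 0.24 in secretory nuclei, and no sample-level pairing is given in the labels. Correlations between animals of unlike number are not given, so these values cannot show whether the numbers pair the animals.

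Hk2 in myoepithelial nuclei turned from 0.48 to -0.19 without the highest 5% of Scrublet scores. Main differences of at most 0.07 on the log2 scale, none of them called, also changed sign: Slc2a1 in secretory nuclei at 0.01 with hashtag UMIs of at least 2 reads and 0.03 at Leiden resolution 1.0 (-0.07 to 0.04 leaving out animals), Slc35a2 in secretory nuclei at -0.01, B4galt1 in adipocyte nuclei at -0.11 and Ugdh in fibroblasts at -0.09 with centred log ratios within barcodes, Lalba in adipocyte nuclei at 0.04 with no filter, Ugdh in fibroblasts at -0.03 with at least 1000 UMIs, and, without the highest 5% of Scrublet scores, Lalba in adipocyte nuclei at 0.09 and B4galt1 there at -0.04. Leaving out animals also gave ranges across 0 for Ugp2 in secretory nuclei (-0.21 to 0.01), Lalba in adipocyte nuclei (-0.08 to 0.04), B4galt1 there (-0.07 to 0.19) and Ugdh in fibroblasts (-0.12 to 0.24). The cause of these changes was not tested. Calling with all 10 hashtags could not be fitted and was not run. The fits within single secretory and fibroblast clusters were chosen after seeing the data. Low UMI counts in adipocyte nuclei limit what can be called there.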
